A study of Homo sapiens with 4 samples.

Results

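The MALAT1 and NEAT1 locus on chromosome 11 was described by its RNAPII-linked DNA loops, that is, the loops with at least 1 anchor between the start of NEAT1 and the end of MALAT1 or within 50 kb of either side (chr11:65372774-65558073 of GRCh38, 185.3 kb, with gene positions from GENCODE 44). This rule found 34 loops of the 77862 listed in either condition, with 31 of 66417 in the mock list and 6 of 18778 in the pyridostatin (PDS) list. The loops came from POLR2A HiChIP-seq, which joins DNA fragments that lie close together in nuclei, keeps those bound by the largest subunit of RNA polymerase II (RNAPII), and counts each joined pair as a paired-end tag (PET). HepG2 cells, a human hepatocellular carcinoma line, were left without drug (mock, water) or exposed to 20 µM PDS, a small molecule that binds G-quadruplex (G4) structures, over 24 h. Each condition had 2 replicates, of which 1 combined loop list was deposited, so there is no spread between replicates, no test between conditions was possible, and intervals cover counting error only. The lowest count was 3 PETs, so a loop that a list does not hold was taken to have up to 2. The loop caller is not known, and it may also have left out loops with more PETs.

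MALAT1 and NEAT1 are a pair of long non-coding RNA genes that are transcribed at high levels in many cell types, in the same direction. MALAT1 RNA stays in the nucleus and collects in nuclear speckles, bodies rich in splicing factors. NEAT1 RNA is the scaffold of paraspeckles, nuclear bodies that hold RNA-binding proteins, and its short and long forms share a start. The end of MALAT1 RNA and that of long NEAT1 RNA are made by cleavage that releases a tRNA-like small RNA. A G4 is a four-stranded structure that G-rich DNA can form, often near the starts of active genes.

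NEAT1 (ENSG00000245532) lies at chr11:65422774-65445540 and MALAT1 (ENSG00000251562) at chr11:65497640-65508073, both on the plus strand, with 52.1 kb between them. The lists placed 4 anchors on NEAT1, at its start (chr11:65411629-65423844, which also holds the end of FRMD8), at a first and a second position in its body (chr11:65426214-65431232 and chr11:65433318-65439458) and at its end (chr11:65441845-65450634). They placed 2 anchors on MALAT1, at its start (chr11:65496644-65502349) and its end (chr11:65503444-65508484). The annotated small RNAs of these ends, at chr11:65445541-65445598 (ENSG00000275948) and chr11:65506117-65506173 (ENSG00000274072), fall inside the end anchors. TALAM1, an antisense RNA gene of MALAT1, lies almost wholly within the same 2 anchors, and loops carry no strand, so its contacts cannot be told apart from those of MALAT1.

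Because PDS binds G4 structures, the sequences at the gene starts and ends are shown first. A predicted G4 motif was taken as 4 runs of G, each at least 3 long, with 1 to 7 bases between neighbouring runs, and both strands were searched. The first RefSeq promoter of MALAT1 (GRCh38.p14, chr11:65497488-65497787, plus strand, 250 bases before to 50 after the RefSeq start) holds 1 such motif. It lies on the minus strand, 2 bases before the RefSeq start and 73 bases past the GENCODE start, and the capitals below mark it as read on the plus strand.
MALAT1 promoter: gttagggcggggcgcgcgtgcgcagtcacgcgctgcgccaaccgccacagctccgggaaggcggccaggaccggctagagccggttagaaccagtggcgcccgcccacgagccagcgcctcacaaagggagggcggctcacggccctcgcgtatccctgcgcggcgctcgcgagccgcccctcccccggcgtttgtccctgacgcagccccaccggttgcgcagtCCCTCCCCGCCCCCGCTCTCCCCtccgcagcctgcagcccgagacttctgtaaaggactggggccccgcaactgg
A motif of this kind was found in 25% of the 35116 RefSeq promoters, and in 11 of the 17 promoters listed for 12 of the genes at the locus and its loop partners. These 17 are not independent, since promoters of CAPN1, CAPN1-AS1 and LTBP3 overlap and share motifs. Those of FRMD8 and MAP3K11 lie in no anchor of the locus. The second RefSeq promoter of MALAT1 held none.

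The MALAT1 end anchor holds 5 motifs, all inside the annotated gene, and the start anchor holds only the promoter motif. Those at chr11:65506734-65506758 and chr11:65507267-65507288 lie past the small RNA of the MALAT1 end. The motifs of both anchors are given 5′ to 3′ on their own strand, with the runs of G in capitals. This pair of anchors carries the strongest mock loop of the locus.
MALAT1 start, chr11:65497713-65497735, minus strand: GGGGagagcGGGGGcGGGGaGGG
MALAT1 end, chr11:65504085-65504109, plus strand: GGGaaGGGaGGGGGtgcctgtGGGG
MALAT1 end, chr11:65504272-65504293, plus strand: GGGatGGGaggaGGGGGtGGGG
MALAT1 end, chr11:65505463-65505486, plus strand: GGGGaGGGaaaGGGGGaaagcGGG
MALAT1 end, chr11:65506734-65506758, plus strand: GGGctGGGGGagaaatGGGGcGGGG
MALAT1 end, chr11:65507267-65507288, minus strand: GGGtaaggaGGGccaGGGaGGG
On NEAT1 the start anchor holds 10 motifs, all upstream of the gene, and the end anchor holds 10, of which 1 lies inside the gene, while both body anchors hold none. Those nearest to the start and the end of the gene are shown.
NEAT1 start, chr11:65422453-65422478, minus strand: GGGGctGGGGGcgtggcGGGcGGGGG
NEAT1 start, chr11:65422681-65422698, plus strand: GGGcaGGGtcGGGGaGGG
NEAT1 end, chr11:65445416-65445430, plus strand: GGGaGGGaGGGaGGG
NEAT1 end, chr11:65445709-65445733, minus strand: GGGaGGGGatagcaGGGcaggaGGG
A motif is a description of the letters. G4 structures in these cells were not measured in the lists.

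Within MALAT1, the loop that joins the start anchor to the end anchor had 9 mock PETs and 5 PDS PETs. It was the strongest loop of the locus in the mock list, and the only MALAT1 loop in the PDS list. The PDS/mock ratio of its PETs was 0.556, with a 95% interval of 0.195 to 1.58 (from the Wilson interval for the share of its summed PETs that came from the PDS list), so a change in this loop was not detectable at this depth. Its anchor midpoints are 6.47 kb apart, and the anchors together cover nearly the whole gene. The contact can therefore lie between any parts of these anchors, not only between the start and the end of MALAT1. Of the 17320 mock loops with 5 to 10 kb between midpoints, 1.14% had at least 9 PETs, and of the 4448 PDS loops in that range, 7.46% had at least 5.

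NEAT1 also had a loop from start to end, 28.5 kb across, with 5 PETs in mock-treated cells and none listed after PDS treatment. Among the 14465 mock loops of 20 to 50 kb, 16.1% had at least 5 PETs. Such start-to-end loops were common among genes whose start and end lie in different listed anchors, since 32% of the 5044 such protein-coding and lncRNA genes had one in the mock list and 8.68% in the PDS list. Both MALAT1 and NEAT1 were therefore among the 1613 genes with a mock loop of this kind, and MALAT1 among the 438 with one after PDS treatment. MALAT1 and NEAT1 are both lncRNA genes shorter than 25 kb, and among the 853 such genes the shares were higher, at 54.2% in the mock list and 18.1% in the PDS list. MALAT1 was 1 of 73 genes with at least 9 PETs in this loop in mock-treated cells.

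The other mock loops within NEAT1 joined its start and its body, and none was in the PDS list. The start anchor met the first body anchor with 5 PETs and the second body anchor with 3. The body anchors met each other with 3 PETs. All 4 loops within NEAT1 summed to 16 PETs in mock-treated cells. The anchors at its start and body had no listed loop of any kind after PDS treatment, and an unlisted loop was taken to have up to 2 PETs. This was the common outcome over the whole lists, where 52814 of the 73492 mock anchors had no PDS loop.

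The genes were joined to each other by 1 loop. It ran from the first body anchor of NEAT1 to the start anchor of MALAT1 over 70.8 kb, with 4 mock PETs, and was not in the PDS list. No loop in either list joined the NEAT1 start anchor or the NEAT1 end anchor to MALAT1. A difference between 4 PETs and 2, the most assumed for an unlisted loop, was not detectable at this depth.

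**Figure D1:**
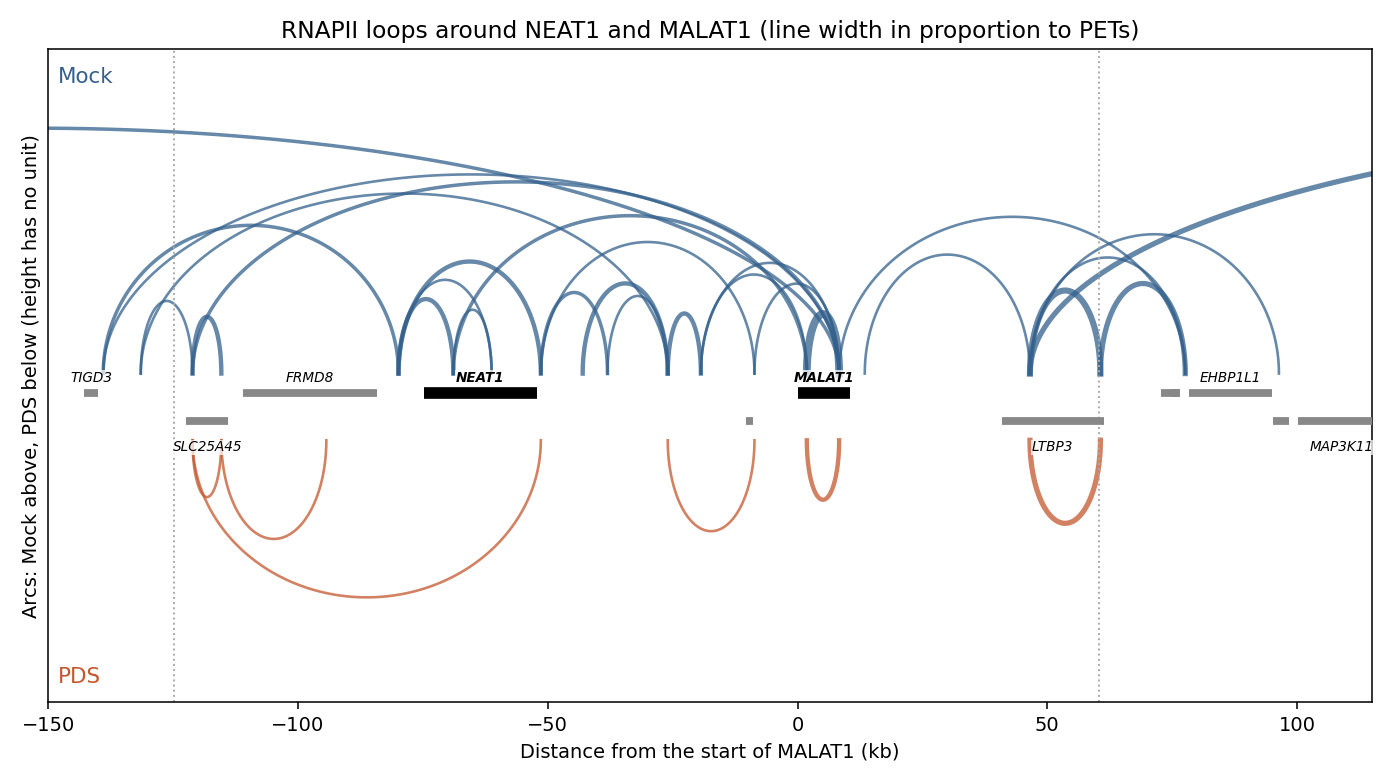
Loops at the locus by position: the horizontal axis is the distance from the start of MALAT1 in kb, blue arcs above are mock loops, red arcs below are PDS loops, line width is in proportion to PETs, arc height has no unit, bars are genes (plus strand on the upper line, minus strand on the lower) and dotted lines bound the window. The map shows 28 of the 31 mock loops, which cover the window and of which 2 run off the axis, while the 6 PDS loops lie within SLC25A45, from there to FRMD8 and to the end of NEAT1, between NEAT1 and MALAT1, within MALAT1 and within LTBP3.

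The end of MALAT1 was the anchor with most partners on either gene. This anchor also holds the annotated start of TALAM1 and lies within 1 kb of annotated MALAT1 starts. Its loops therefore need not belong to the end of the gene. It had 7 loops with 29 PETs in mock-treated cells, a number of loops reached by 1.72% of the 73492 mock anchors, which had a median of 1. Only the loop to the MALAT1 start was listed after PDS treatment. The MALAT1 start anchor had 3 loops with 16 PETs in mock-treated cells and the same single PDS loop with 5 PETs.

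Toward NEAT1, the MALAT1 end anchor met the anchor of LINC02736, an intergenic lncRNA gene 16.95 kb away, with 3 mock PETs. It met the fourth anchor of the interval between the genes (chr11:65476262-65480307) with 3 PETs over 27.7 kb, and the MALAT1 start met that same anchor with 3. These were the nearest partners outside the gene, and none of the 3 loops was in the PDS list.

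Beyond NEAT1, the MALAT1 end anchor reached 3 upstream genes in mock-treated cells. It met the end of SLC25A45, which encodes a member of the mitochondrial carrier family, with 4 PETs over 129.5 kb. It met the end of TIGD3, a gene derived from a transposable element, with 3 PETs over 147.3 kb. The longest of these loops, 322.3 kb, went to the start of CAPN1, which encodes a calpain protease, with 4 PETs. In the other direction it met the anchor that holds the starts of ZNRD2, FAM89B and EHBP1L1, 69.3 kb downstream, with 3 PETs. All of these PET counts were 3 or 4 and none of the loops was listed after PDS treatment, so no drop in a single one of these contacts could be detected.

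NEAT1 reached fewer genes. Its start anchor met the same TIGD3 anchor with 4 mock PETs over 59.1 kb. Its end anchor met the second interval anchor (chr11:65457535-65461636) with 4 PETs and LINC02736 with 3 PETs. The PDS list held none of these and instead a loop of 3 PETs from the NEAT1 end to the end of SLC25A45, 69.7 kb away, which the mock list did not hold. TIGD3 and LINC02736 were thus reached from both genes in mock-treated cells, and SLC25A45 from MALAT1 in the mock list and from NEAT1 in the PDS list.

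Over each gene as a whole, MALAT1 had 9 mock loops holding 36 PETs and 1 PDS loop holding 5 PETs. NEAT1 had 8 mock loops holding 31 PETs and 1 PDS loop holding 3 PETs. Per 10 kb of gene, the mock list held 8.63 loops for MALAT1 and 3.51 for NEAT1. As the loop counts are close, this gap follows from the gene lengths of 10.43 and 22.77 kb. The anchors also run past the genes, so these densities do not rank the genes. No loop with an anchor on NEAT1 was in both lists, a share of 0% of its 8 mock loops (95% Wilson interval 0 to 32.4%). This interval includes the 11% of all mock loops that were also listed after PDS treatment. The absence of a shared loop therefore does not set NEAT1 apart from the whole lists.

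**Figure D2:**
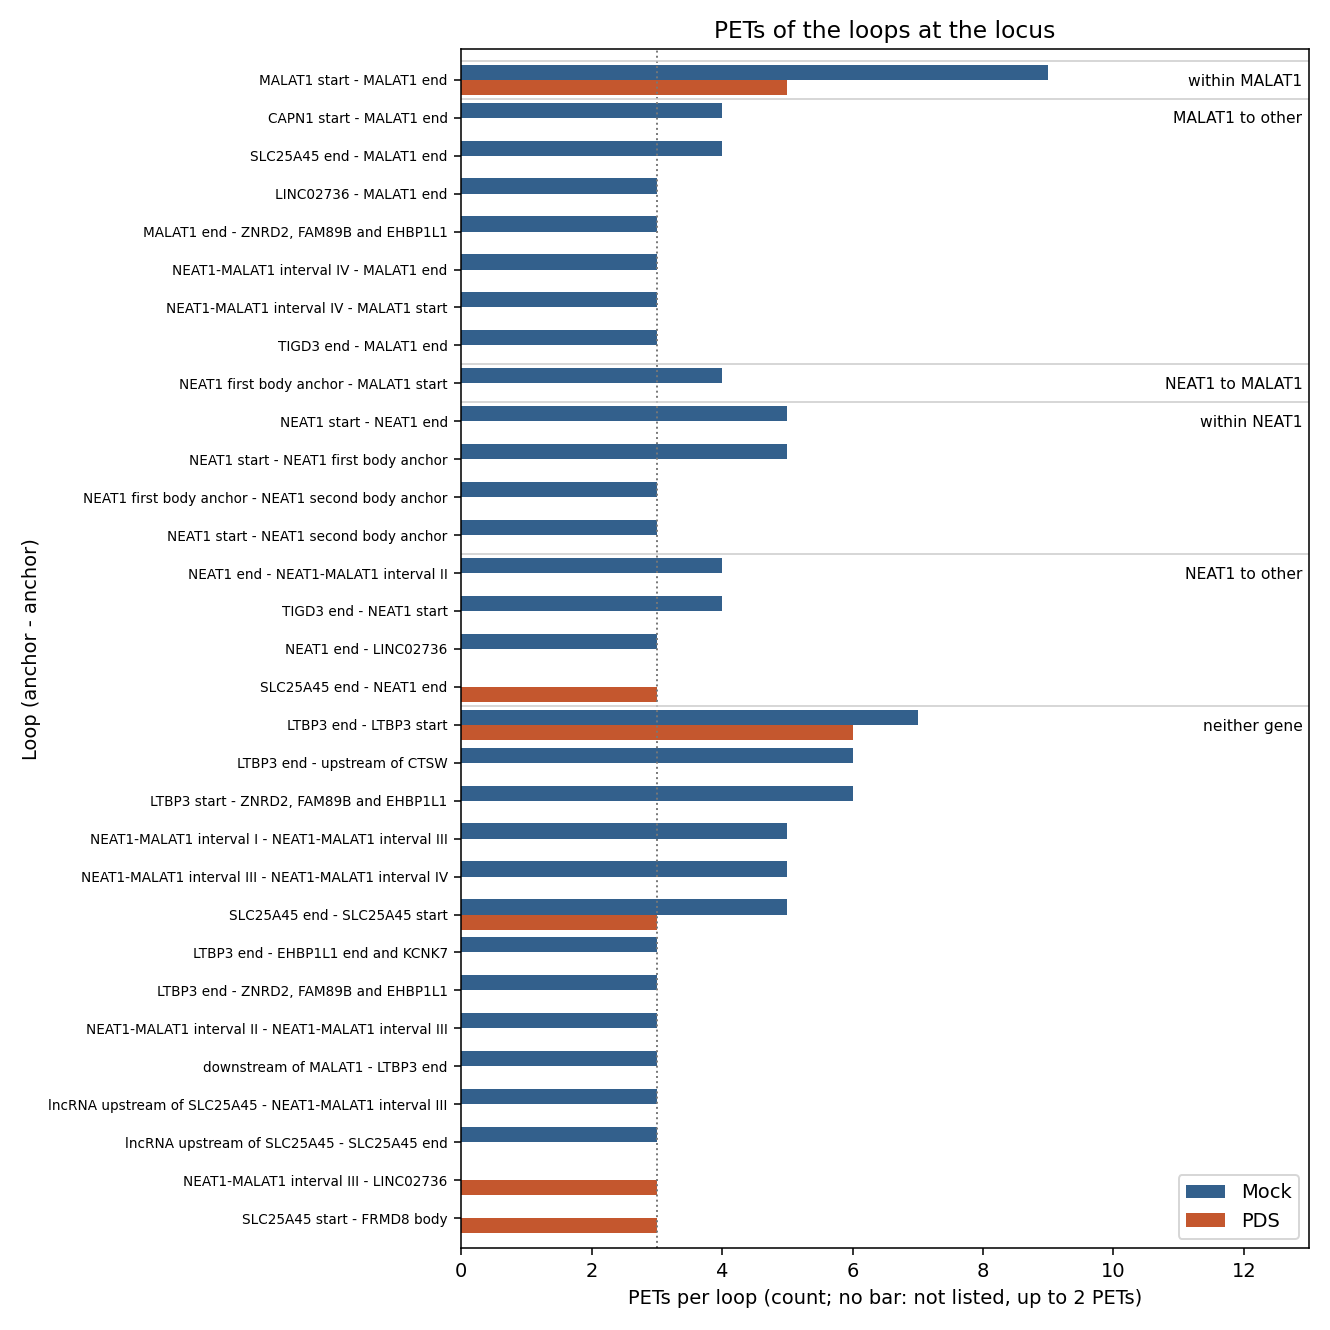
PETs of 31 of the 34 loops of the locus, as counts on the horizontal axis, in mock-treated (blue) and PDS-treated cells (red). Loops are grouped by whether they touch MALAT1 or NEAT1, and the dotted line is the minimum of 3 PETs. A missing bar means that the loop was not listed, taken as up to 2 PETs. Only 3 loops have both bars, and each is lower in PDS-treated cells, at 9 and 5, 7 and 6, and 5 and 3 PETs.

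Among the neighbouring genes, SLC25A45 had the same number of loops in either list. It was touched by 3 loops holding 12 PETs in mock-treated cells and by 3 loops holding 9 PETs after PDS treatment, and 1 of them was listed in both. That shared loop, between the end and the start anchors of the gene, had 5 mock PETs and 3 PDS PETs. The start anchor of SLC25A45 also had a PDS loop of 3 PETs, not in the mock list, to the body of FRMD8, which encodes a FERM domain protein. FRMD8 had no loop at its own start in either list, and its 4 mock loops all used the anchor that it shares with the start of NEAT1.

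Downstream of MALAT1, many loops were found at LTBP3, which encodes a binding protein of latent TGF-β. The anchor at the end of LTBP3 had 7 mock loops with 31 PETs, a number of loops reached by 1.72% of mock anchors. This anchor is 19008 bp wide, against a median of 5918 bp for mock anchors, and covers most of the gene. The part of its width in these counts was not tested. Its loop to the LTBP3 start had 7 mock PETs and 6 PDS PETs, a PDS/mock ratio of 0.857 (95% interval 0.302 to 2.43), and was the strongest PDS loop of the locus. Among its other partners were a region downstream of MALAT1 with 3 mock PETs and the ZNRD2, FAM89B and EHBP1L1 anchor with 3. Another was the anchor of the EHBP1L1 end and of KCNK7, a potassium channel gene, with 3. None of these was in the PDS list.
A loop of 334.1 kb joined that anchor to a region just upstream of CTSW, a cathepsin gene, with 6 PETs in mock-treated cells and none listed after PDS treatment. The LTBP3 start anchor met the ZNRD2, FAM89B and EHBP1L1 anchor with 6 mock PETs, and this loop was also missing from the PDS list. Within 1 kb of any annotated transcript start, LTBP3 had 8 mock loops and 1 PDS loop.

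Between NEAT1 and MALAT1, 4 mock loops joined anchors that touch neither gene to the third interval anchor (chr11:65468525-65474780), which overlaps an unnamed lncRNA gene (ENSG00000289259). They had 5 PETs with the first interval anchor, 5 with the fourth, 3 with the second, and 3 with an lncRNA upstream of SLC25A45 at 105.5 kb. None of them was listed after PDS treatment, when this anchor met LINC02736 instead, with 3 PETs. Except for the last, these were contacts within the interval, and no loop of the third anchor reached NEAT1 or MALAT1.

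**Figure D3:**
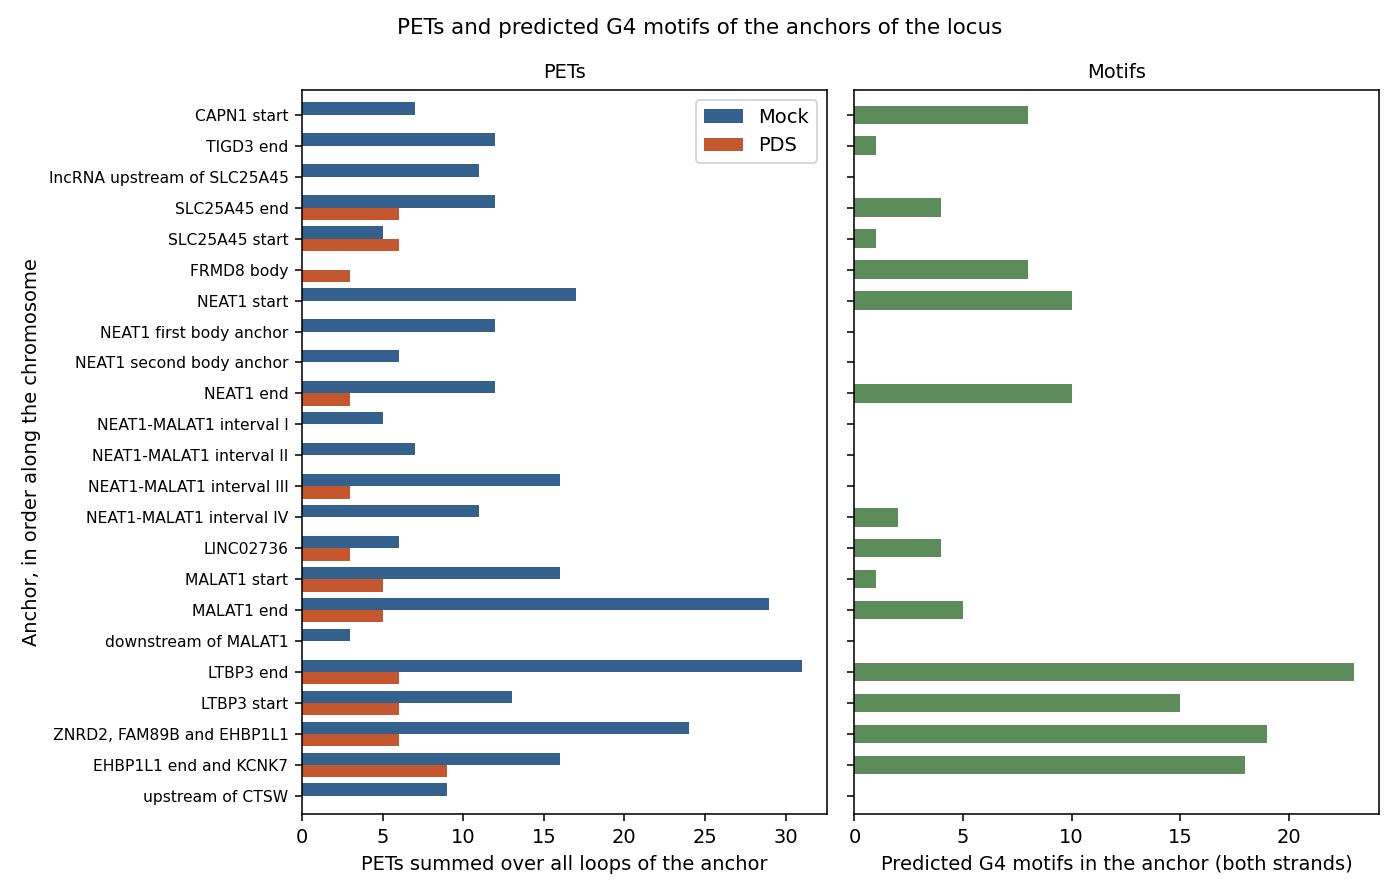
Left, PETs summed over all listed loops of 23 of the 25 anchors of the locus in mock-treated (blue) and PDS-treated cells (red), including loops that leave the locus; right, number of predicted G4 motifs in each anchor on both strands. The MALAT1 end (29 PETs, 5041 bp wide) and the LTBP3 end (31 PETs, 19008 bp wide) stand highest in mock-treated cells. The NEAT1 start and body anchors have no red bar, and over the whole lists 52814 of the 73492 mock anchors had no PDS loop.

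Over the whole locus, the 31 mock loops held 128 PETs and the 6 PDS loops held 23. The number of PDS loops over that of mock loops was 0.194 (95% interval 0.0828 to 0.452) and the same ratio for PETs was 0.180 (0.116 to 0.279). On chromosome 11 the ratios were 0.257 and 0.230, and over the whole lists 0.283 and 0.263, all inside the intervals of the locus. With the 50 kb flanks the locus therefore did not differ from the rest of the lists beyond the counting error. The PET ratio was 0.139 (0.0749 to 0.259) without flanks and 0.147 (0.0847 to 0.256) with flanks of 25 kb. These upper limits lie just below the 0.263 of the whole lists and above the 0.230 of chromosome 11. PET intervals take PETs as independent although each listed loop brings at least 3, so they are too narrow to decide such small gaps. The matching intervals for loop numbers, 0.0475 to 0.473 and 0.0604 to 0.460, include the 0.283 of the whole lists. If every mock loop missing after PDS treatment had 2 PETs, the PDS sum would be 79. No library depth came with the lists, so fewer loops after treatment and fewer sequenced pairs cannot be told apart.

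For the loops that touch MALAT1 or NEAT1, the ratio was 0.125 for loop numbers (16 to 2 loops, 95% interval 0.0320 to 0.488) and 0.127 for PETs (63 to 8 PETs, 0.0618 to 0.261). For the 15 mock and 4 PDS loops of the locus that touch neither gene, the ratios were 0.267 (0.0930 to 0.765) and 0.231 (0.133 to 0.402). The PET ratio of the whole lists, 0.263, lies just above the upper limit for loops that touch MALAT1 or NEAT1, while that of chromosome 11 lies inside it, and all other intervals include both. The 8 PDS PETs of these loops come from only 2 loops, so the PET interval is too narrow to decide so small a gap. The intervals with and without the genes overlap, and the difference between both groups was not tested. Of the 31 mock loops, 10 with 38 PETs ran from the window to an anchor outside it, against 0 of the 6 PDS loops. That gives a ratio of loop numbers of 0 with an upper limit of 0.384, which includes the ratio of the whole lists. Loops over 100 kb numbered 5 in the mock list and 0 in the PDS list. With 5 mock loops, 0 is too small a count to set against the ratio of 0.283 of the whole lists. The share of such long loops over the whole lists is not given here.

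**Figure D4:**
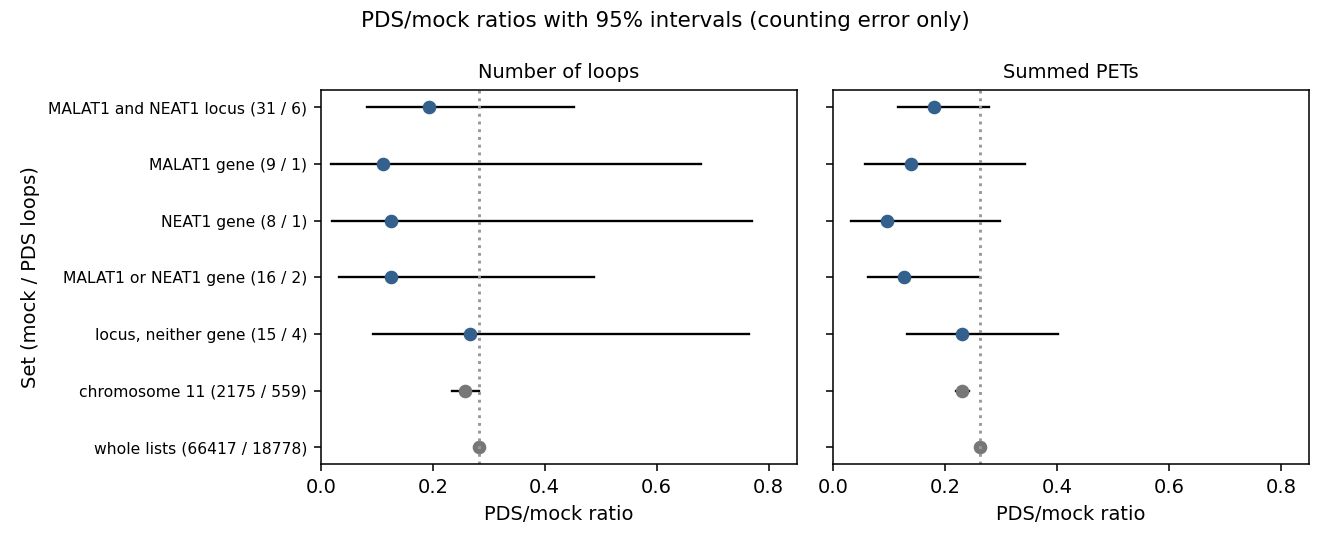
PDS/mock ratios of the number of loops (left) and of summed PETs (right), with 95% intervals (Wilson, counting error only); numbers in brackets are mock and PDS loops, and the dotted lines mark the ratio of the whole lists. Every interval for loop numbers at the locus includes the dotted line at 0.283. For PETs the upper limit of the loops that touch MALAT1 or NEAT1, 0.261, stops just short of the line at 0.263. Intervals of summed PETs take PETs as independent and are too narrow.

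Only 3 of the 31 mock loops, or 9.68% (95% Wilson interval 3.35 to 24.9%), were also listed after PDS treatment, against a background of 11% of all mock loops. With anchors extended by 5 kb on either side, the share was 35.5% (11 of 31 loops), against 32.5% of all mock loops. The 3 loops shared without extension were those within MALAT1, within LTBP3 and within SLC25A45. Each had identical anchors in both lists, as had all 7333 shared loops of the whole lists. Those of MALAT1 and LTBP3 join the anchors that hold the start and the end of the gene. The SLC25A45 start anchor stops at chr11:65383170, short of the outermost annotated start at chr11:65383701. Over all 5044 genes, 293 had a start-to-end loop in both lists, among 1613 with one in the mock list. All 3 shared loops of the locus came from its 10 loops with 5 or more mock PETs. Over the whole lists, 26.8% of this class was listed after PDS treatment. None of the 21 locus loops with 3 or 4 mock PETs was listed again, against 7.48% of all such mock loops. The shared loops summed to 21 mock PETs and 14 PDS PETs, a PDS/mock ratio of 0.667 (0.343 to 1.29). In the other direction, 3 of the 6 PDS loops were in the mock list, where the background was 39.1%. The 3 that were not, at SLC25A45 and FRMD8, at SLC25A45 and NEAT1, and at LINC02736, had 3 PETs each, the lowest count in the lists.

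Predicted G4 motifs were found in 15 of the 24 anchors of mock loops at the locus, or 62.5% (95% Wilson interval 42.7 to 78.8%), and in 9 of the 10 anchors of its PDS loops. Over all anchors the share was 48.2% in the mock list and 51.5% in the PDS list, and on chromosome 11 it was 54.0% for anchors of either list. The anchors of the locus were also richer in G and C, with a mean of 52.9% against 43.8% over all anchors, and the part of this in the share of motifs was not tested. All 3 shared loops had a motif in both anchors. Of the 28 loops found in the mock list alone, 14 had a motif in both anchors, 10 in 1 anchor and 4 in none. Over the whole lists, a motif in both anchors was found in 38.8% of shared loops and in 32.0% of loops of the mock list alone.
Of the 13 locus anchors that no PDS loop used, 5 held a motif (38.5%), near the 45.1% of all anchors without a PDS loop, and these anchors were narrower, with a median of 4355 bp against 6375 bp for the 10 anchors of PDS loops. With spacers of up to 12 bases, 11 of the 13 and 9 of the 10 held a motif. The NEAT1 start was among these 13 in spite of its 10 motifs, while the NEAT1 end, also with 10, had 1 PDS loop.

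The genes of paraspeckle and speckle proteins were counted in the same way, by loops within 1 kb of an annotated start. Of 11 paraspeckle protein genes, 7 had a mock loop, with 22 loops and 90 PETs in all, and 3 had a PDS loop, with 4 loops and 14 PETs. Over all 20033 protein-coding genes, 59.8% had a mock loop and 28.7% a PDS loop at a start, so these counts are near the background. SFPQ, whose protein is a core component of paraspeckles, had 3 mock loops with 15 PETs and 1 PDS loop with 4. NONO and PSPC1, which encode the partners of SFPQ, had no loop at their starts in either list. Of 5 speckle protein genes, 4 had mock loops (10 loops, 33 PETs) and none a PDS loop at a start, while 1 PDS loop touched the body of SRSF3. With 5 genes, 0 is too small a count to set against 28.7%. Of 6 hepatocyte marker genes, 5 had mock loops at their starts and all 6 had PDS loops, led by ALB with 13 and 3. Markers of other cell types were not counted, and loop counts at so few genes do not by themselves identify the cell line.

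The lists held 254647 PETs in mock loops and 67001 in PDS loops. At the locus 14 of the 31 mock loops and 4 of the 6 PDS loops had 3 PETs. Of 81742 anchors, 81737 had an MboI site of the reference at both ends, as the enzyme and the build require.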

How the data were processed

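POLR2A HiChIP-seq of HepG2 cells gave 1 loop list per condition (mock and PDS, 2 replicates each). With HiC-Pro 3.1.0 the authors mapped read pairs to GRCh38, dropped duplicates and placed the pairs on MboI fragments, and they deposited whole-number counts of PETs per loop without scaling. The loop caller and the way replicates were combined are not given in the sources used here. The members and gene lists were chosen with earlier results of these data known, and start-to-end loops, loops leaving the window and motifs by loop class were chosen after values had been seen.

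Some genes are not reported here, and 3 loops and 2 anchors of the locus are counted but not shown one by one. Loops were read as deposited, with no loop left out, and anchors were written 1-based. A loop was shared when both anchors overlapped by at least 1 bp. Genes were named where an annotated start (GENCODE 44) lay within 1 kb of an anchor, or else where the gene body overlapped it. Ratios have 95% intervals derived from Wilson intervals of shares (scipy 1.17.1), which cover counting error only. For summed PETs they take the PETs of a loop as independent and are therefore too narrow. Single loops of 3 to 9 PETs are known with little precision. Matching and motif search were tested on simulated data (600 of 600 shared loops and 300 of 300 motifs recovered, with 0 false calls). Alternatives were PET minimum, flank, overlap rules, distance, scaling and motif spacer. Python 3.11.15, numpy 2.4.6 and matplotlib 3.10.9 were used.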

Additional observations from a re-analysis of the deposited data

How the results depend on the processing

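Of the 39 values recomputed under other settings, 26 stayed within the interval of the value reported or, for counts, close to it, and 13 moved. A higher PET minimum can only lower counts, scaling by list totals must raise the PET ratio, and anchors of PDS loops are another set. The tally is therefore not a measure of stability. With only loops over 20 kb, the PDS/mock ratio of PETs was 0.111. Dividing PETs by the total of each list gave 0.683, which sets the locus against the whole lists and not against depth. The share of mock loops also listed after PDS treatment was 35.5% with anchors extended by 5 kb and 30.0% among loops with at least 5 PETs. Under that minimum NEAT1 had 2 mock and 0 PDS loops, MALAT1 had 1 mock loop, and 0 mock loops joined the genes. At the gene start alone (1 kb on either side), NEAT1 had 4 mock and 0 PDS loops and MALAT1 had 3 mock loops. The share of anchors with a G4 motif was 87.5% with spacers of up to 12 bases and 90.0% for the anchors of PDS loops. Every ratio of loop numbers or PETs tried was below 1. So were those of the whole lists, 0.283 and 0.263, and values below 1 therefore do not set the locus apart. The scaled value of 0.683 has no interval. No paired analysis was possible because each list combines both replicates, and leaving out each replicate was not run for the same reason. With 3 to 9 PETs per loop, single losses were not detectable at this depth.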
